A study of Rattus norvegicus with 141 samples.

Results

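The genes described here are markers of mast cells, taken by symbol from the gene tables of a study of microplastics in rats. The list held 9 genes: Fcer1a, Ms4a2, Cma1, Cpa3, Tpsab1, Tpsb2, Mcpt2, Kit and Gata2. Of these, 8 were among the 30562 genes of each table, and no row was named Mcpt2. The filter on low counts passed 7 of them in stomach, 6 in duodenum and 2 in liver, so each test below covers only those that passed. The genes were chosen by symbol, with earlier results of these data known.

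Mast cells are tissue-resident cells of the blood lineage that sit beneath the gut epithelium and along vessels, and are best known for the release of histamine and proteases when antigen crosslinks IgE on their surface. The high-affinity IgE receptor is built from an alpha chain that binds IgE (Fcer1a), a beta chain that amplifies the signal (Ms4a2) and a gamma chain shared with other receptors. The granules store chymase (Cma1), carboxypeptidase A3 (Cpa3) and tryptases (Tpsab1, Tpsb2). In rodents, connective tissue mast cells carry tryptases and carboxypeptidase A, whereas mucosal mast cells of the gut carry other chymases, of which Mcpt2 is the textbook marker in the rat. Kit, the receptor of stem cell factor, keeps mast cells alive but also marks the interstitial cells of Cajal, the pacemaker cells of gut muscle. Gata2, a transcription factor needed for mast cell development, is also made by endothelium.

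These were adult male and female Sprague-Dawley rats with the genotype WT. Animals of each sex had microplastics at 5 mg/kg, microplastics at 50 mg/kg, or vehicle alone, and no other treatment is named. Polyadenylated RNA of stomach (48 libraries), duodenum (47) and liver (46) was sequenced. Each combination of sex and dose had 8 libraries, except vehicle females in duodenum (7) and females at 50 mg/kg in liver (6). Both sexes together gave 16 stomach libraries for each dose, 15, 16 and 16 duodenum libraries, and 16, 16 and 14 liver libraries, for vehicle, 5 and 50 mg/kg. The labels give no route, duration or polymer. The labels do not say whether each library came from its own animal, so p-values measure the spread between these libraries. In bulk tissue, fewer mast cells and less RNA per mast cell cannot be told apart.

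Library totals ran from 4947825 to 23940175 counts in stomach, from 5470039 to 25503801 in duodenum and from 6153368 to 23716967 in liver. Levels are given as CPM, a gene's count scaled to a fixed library total, with the totals adjusted by TMM within each tissue. The tissue labels were checked with marker genes: 6 glandular stomach genes summed to 71448 to 229691 CPM in stomach, 5 hepatocyte genes to 66292 to 170074 CPM in liver, and 5 enterocyte genes to 1125 to 14034 CPM in duodenum. The latter lists were less exclusive: the hepatocyte genes reached 14670 CPM in duodenum and the enterocyte genes 1638 CPM in liver, above the lowest duodenum library. Pieces differed in what they held, since 5 pancreatic acinar genes summed to between 0.253 and 43719 CPM in duodenum. The share of counts from ribosomal protein genes moved with dose: its median was 2.69% in vehicle stomach and 3.89% at 50 mg/kg, and 3.74% and 5.72% in duodenum. Per the labels, several pieces of a tissue were pulverized together, the mass used varied, and the homogenizer was taken apart for cleaning only between treatments, so tissue handling and dose cannot be told apart. The labels also give each library 1 of 3 batches, which were spread unevenly over the doses.

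Among vehicle libraries, the receptor chains, Cma1 and Cpa3 were counted in every stomach and duodenum library and had medians under 0.4 CPM in liver, where Kit and Gata2 were the 2 genes that passed the filter. The gut tissues differed in which genes they held, with Tpsb2 almost uncounted in duodenum. The receptor chains and Cpa3 were higher in duodenum, while the tryptases, Kit and Cma1 were higher in stomach. These contrasts were fitted with edgeR over all 141 libraries, where 77.4% of genes differed between stomach and duodenum, 82.1% between stomach and liver, and 81.5% between duodenum and liver. Of the 8 mast cell genes, 7, 8 and 7 passed an adjusted p of 0.05 in those contrasts, a share close to that of all genes. The contrasts used 1 TMM scaling over all tissues, whereas CPM was scaled within each tissue. Fitted folds against liver therefore differ from ratios of CPM. Without TMM scaling the median of all genes moved from 0.08 to 1.15 (log2) for stomach against liver and from 0.22 to 1.24 for duodenum against liver. With the size factors of DESeq2 the median moved by just over 0.1 in the contrasts with stomach, to 0.21 against liver and to 0.02 against duodenum. No mast cell gene changed direction under these scalings.

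The IgE receptor alpha chain Fcer1a ranged from 0.663 to 5.90 CPM in vehicle stomach (median 1.24), from 0.914 to 7.73 in duodenum (median 1.96) and from 0 to 0.660 in liver (median 0.0685). Both gut tissues overlapped each other, and the lowest stomach library and the highest liver library had nearly the same CPM. As CPM was scaled within each tissue, this does not show whether they overlap on the scale of the contrasts. Fcer1a was lower in stomach than in duodenum by a log2 difference of -0.59 ± 0.24 (SE; adjusted p = 0.0221), a call that was lost with other size factors (-0.49, adjusted p = 0.0588), without the batch term (-0.51, adjusted p = 0.109) and in a fit of vehicle libraries only (-0.51, adjusted p = 0.0944). The beta chain Ms4a2 had medians of 2.58 CPM in stomach (range 1.49 to 6.12), 4.26 in duodenum (2.62 to 12.2) and 0.308 in liver (0 to 0.770). Ms4a2 was lower in stomach than in duodenum by -0.87 ± 0.19 (adjusted p = 1.16e-05), with overlapping libraries. In the fit over all tissues, Fcer1a was 8.36-fold and Ms4a2 4.62-fold higher in stomach than in liver, less than the ratios of their CPM medians.

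Carboxypeptidase A3, which trims peptides released by chymase, had medians of 4.67 CPM in stomach (range 2.06 to 9.95), 6.29 in duodenum (2.86 to 22.9) and 0.381 in liver (0.0862 to 0.992). Cpa3 was lower in stomach than in duodenum by -0.71 ± 0.18 (adjusted p = 0.000259). Cma1, the chymase, went the other way, with 3.37 CPM in stomach (1.65 to 7.44), 2.39 in duodenum (0.374 to 5.95) and 0.0876 in liver (0 to 0.323). The stomach level of Cma1 was higher by 0.58 ± 0.22 (adjusted p = 0.0122). For both proteases the stomach and duodenum libraries overlapped.

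The tryptases were higher in stomach than in the other tissues. Tpsb2, the tryptase also known as Mcpt6, gave 198 counts in all over 16 vehicle stomach libraries, 2 over 15 duodenum libraries and 35 over 16 liver libraries. Per total count, without TMM scaling, the stomach rate was 107 times that of duodenum (95% interval 29.2 to 887, for counting error only). It was 7.11 times that of liver (4.95 to 10.5). The vehicle stomach range was 0.308 to 4.08 CPM and that of duodenum 0 to 0.102. Over all doses, 42 of the 47 duodenum libraries had no count of Tpsb2. Tpsab1, also known as Mcpt7, gave 90 counts in stomach, 18 in duodenum and 6 in liver. Its stomach rate was 5.39 times that of duodenum (3.22 to 9.50) and 18.9 times that of liver (8.34 to 52.8). Tpsab1 and Tpsb2 are neighbours with no gene between them in RefSeq, and reads they share could be split either way, although their counts were whole numbers in every library.

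Kit had medians of 45.5 CPM in vehicle stomach (range 32.1 to 52.8), 16.4 in duodenum (11.2 to 27.7) and 3.66 in liver (1.25 to 6.35). The stomach level exceeded that of duodenum by 1.38 ± 0.11 (adjusted p = 1.27e-23). The marker list of the interstitial cells of Cajal ran in the same order, with summed vehicle medians of 130 CPM in stomach, 42.3 in duodenum and 4.01 in liver. Gata2 had medians of 4.27 CPM in stomach (2.56 to 6.01), 3.15 in duodenum (1.84 to 10.2) and 1.08 in liver (0.725 to 1.95). The difference of Gata2 between stomach and duodenum was not called by edgeR (0.13 ± 0.15, adjusted p = 0.443). In the same fit its level was 1.74 times higher in stomach than in liver, less than the ratio of its CPM medians.

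**Figure D1:**
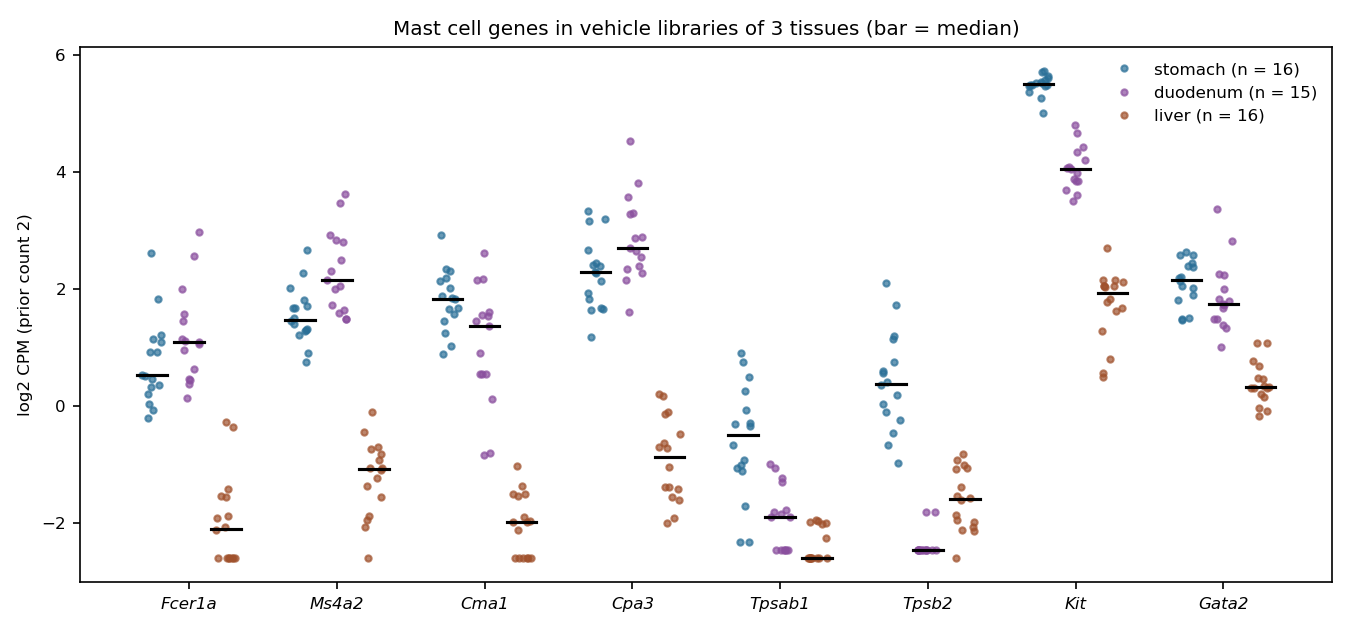
Level of each mast cell gene in vehicle libraries of stomach, duodenum and liver, as log2 CPM scaled within each tissue, with a prior count of 2. Each point is a library and each bar a median. Tpsb2 sits at the floor in duodenum, the receptor chains and Cpa3 lie highest in duodenum, and Kit falls from stomach (median 45.5 CPM) to duodenum (16.4) to liver (3.66).

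The sequences around the transcription starts are shown because Fcer1a and Cma1 are the mast cell genes with a called dose contrast, Cpa3 is the gene the others were compared with across libraries, and the tryptase pair differed between tissues. They are from RefSeq on GRCr8, 250 bases before to 50 bases after each start, and 7 of the 8 genes matched an entry, all but Ms4a2. Capitals mark GATAA, or TTATC where it lies on the opposite strand, the letters bound by GATA factors such as Gata2. The windows are chr13:88224630-88224929 (minus strand) for Fcer1a, chr15:33390084-33390383 (minus) for Cma1, chr2:104673188-104673487 (minus) for Cpa3, chr10:14867253-14867552 (minus) for Tpsab1 and chr10:14886060-14886359 (plus) for Tpsb2.
Fcer1a: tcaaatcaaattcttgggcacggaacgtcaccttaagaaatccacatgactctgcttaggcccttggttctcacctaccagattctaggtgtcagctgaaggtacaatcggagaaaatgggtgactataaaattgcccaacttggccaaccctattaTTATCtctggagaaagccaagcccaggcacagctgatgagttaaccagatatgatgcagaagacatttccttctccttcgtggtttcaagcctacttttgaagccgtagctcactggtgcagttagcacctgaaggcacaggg
Cma1: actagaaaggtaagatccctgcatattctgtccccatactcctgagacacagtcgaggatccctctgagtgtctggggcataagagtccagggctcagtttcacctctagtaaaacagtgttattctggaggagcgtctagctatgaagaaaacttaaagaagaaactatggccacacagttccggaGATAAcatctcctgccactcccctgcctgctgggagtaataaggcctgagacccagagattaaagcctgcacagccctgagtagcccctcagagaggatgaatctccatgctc
Cpa3: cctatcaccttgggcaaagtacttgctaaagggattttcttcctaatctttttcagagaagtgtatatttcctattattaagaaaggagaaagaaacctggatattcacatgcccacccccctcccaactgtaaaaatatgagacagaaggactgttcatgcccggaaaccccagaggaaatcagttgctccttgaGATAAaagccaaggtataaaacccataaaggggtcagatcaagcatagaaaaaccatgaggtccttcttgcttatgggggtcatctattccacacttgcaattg
Tpsab1: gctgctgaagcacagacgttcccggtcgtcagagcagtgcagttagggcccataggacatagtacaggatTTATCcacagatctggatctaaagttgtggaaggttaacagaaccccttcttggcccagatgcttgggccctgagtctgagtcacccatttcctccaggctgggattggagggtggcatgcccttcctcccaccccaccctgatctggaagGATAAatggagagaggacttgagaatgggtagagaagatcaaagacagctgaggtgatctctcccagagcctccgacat
Tpsb2: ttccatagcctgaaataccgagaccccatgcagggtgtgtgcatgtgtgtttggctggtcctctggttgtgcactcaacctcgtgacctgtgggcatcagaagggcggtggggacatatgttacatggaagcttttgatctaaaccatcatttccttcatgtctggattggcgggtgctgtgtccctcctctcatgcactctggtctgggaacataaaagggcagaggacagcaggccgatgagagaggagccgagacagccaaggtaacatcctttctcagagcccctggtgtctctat
The motif was searched on both strands and does not overlap another copy of itself. It was in 4 of the 7 windows, those of Fcer1a (first base at -93, opposite strand), Cma1 (-63), Cpa3 (-54) and Tpsab1 (-180, opposite strand, and -29). The windows of Tpsb2, Kit and Gata2 did not hold these letters. Of all 33469 windows of 300 bases in the table, 26.5% held the motif.

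At 50 mg/kg the IgE receptor alpha chain had the largest change from vehicle among the mast cell genes tested over both sexes, in stomach and in duodenum. Fcer1a rose 1.72-fold in duodenum and 2.07-fold in stomach of males, and both passed an adjusted p of 0.05. The change in stomach over both sexes was 1.66-fold and missed it narrowly. In a fit that also took the ribosomal protein share as a covariate, none of these changes of Fcer1a was called.

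In duodenum, vehicle libraries held 0.914 to 7.73 CPM of Fcer1a (median 1.96), libraries at 5 mg/kg 0.762 to 5.38 (median 2.34), and libraries at 50 mg/kg 1.60 to 13.5 (median 3.91). The groups overlapped, but 14 of 16 libraries at 50 mg/kg were above the vehicle median. The log2 change was 0.78 ± 0.23 (SE; adjusted p = 0.0192) and 1 of 6 mast cell genes tested was called, against 16.3% of all genes in that contrast, 8.76% higher and 7.58% lower. Every fit that left out 1 library kept the call, while the number of all genes called, 2481, ran from 1145 without vehicle female replicate 1 to 3700 without male replicate 6 at 50 mg/kg. The changes in males (0.80 ± 0.30, adjusted p = 0.112) and females (0.77 ± 0.34, adjusted p = 0.333) were not called alone, nor was their difference (0.02 ± 0.49, adjusted p = 1), and 0% of all genes were called in each of the 3 contrasts. The median in males was 1.93 CPM with vehicle and 4.60 at 50 mg/kg, and in females 1.98 and 3.07.

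In stomach, Fcer1a had medians of 1.24 CPM with vehicle (0.663 to 5.90), 1.83 at 5 mg/kg (0.689 to 7.23) and 2.30 at 50 mg/kg (0.753 to 9.48). The groups overlapped, with 13 of 16 libraries at 50 mg/kg above the vehicle median. The log2 change over both sexes was 0.73 ± 0.23 (adjusted p = 0.0510), and 0 of 7 mast cell genes were called by edgeR, against 4.49% of all genes, with 2.65% of all genes higher. Of the 7 genes, 3 had an unadjusted p under 0.05, as had 3610 of the 15140 genes tested. The 3 were Fcer1a and Cma1, which were higher, and Kit, which was lower. DESeq2 and voom with quality weights each called 1 of the 7, which was Fcer1a (adjusted p = 0.0333 and 0.0125). Fcer1a was also called by edgeR when vehicle male replicate 1, 3, 6 or 8, vehicle female replicate 2 or 3, male replicate 7 or 8 at 50 mg/kg, or female replicate 5 at 50 mg/kg was left out (adjusted p from 0.0220 to 0.0477). The number of all genes called in this contrast, 680, ran from 4 without male replicate 4 at 50 mg/kg to 1462 without vehicle female replicate 2. In males the median was 1.47 CPM with vehicle (0.663 to 5.90) and 4.03 at 50 mg/kg (1.67 to 9.48), a log2 change of 1.05 ± 0.30 (adjusted p = 0.0309), while 7.06% of all genes were called, 4.95% higher and 2.11% lower. The 4 libraries of batch 2 among these 8 held 5.62 to 9.48 CPM and the other 4 held 1.67 to 2.45. Their ribosomal protein shares also differed, with 4.81 to 7.50% in those of batch 2 and 2.68 to 5.69% in the other 4. The call in males was lost when vehicle replicate 2, 4 or 7, or 50 mg/kg replicate 2, 3, 4 or 6, was left out (adjusted p from 0.0523 to 0.0930). In females the medians were 1.21 and 1.78 CPM, a change of 0.41 ± 0.34 (adjusted p = 0.877), where 0% of all genes were called. The difference between the sexes was not called (0.63 ± 0.45, adjusted p = 0.723).

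**Figure D2:**
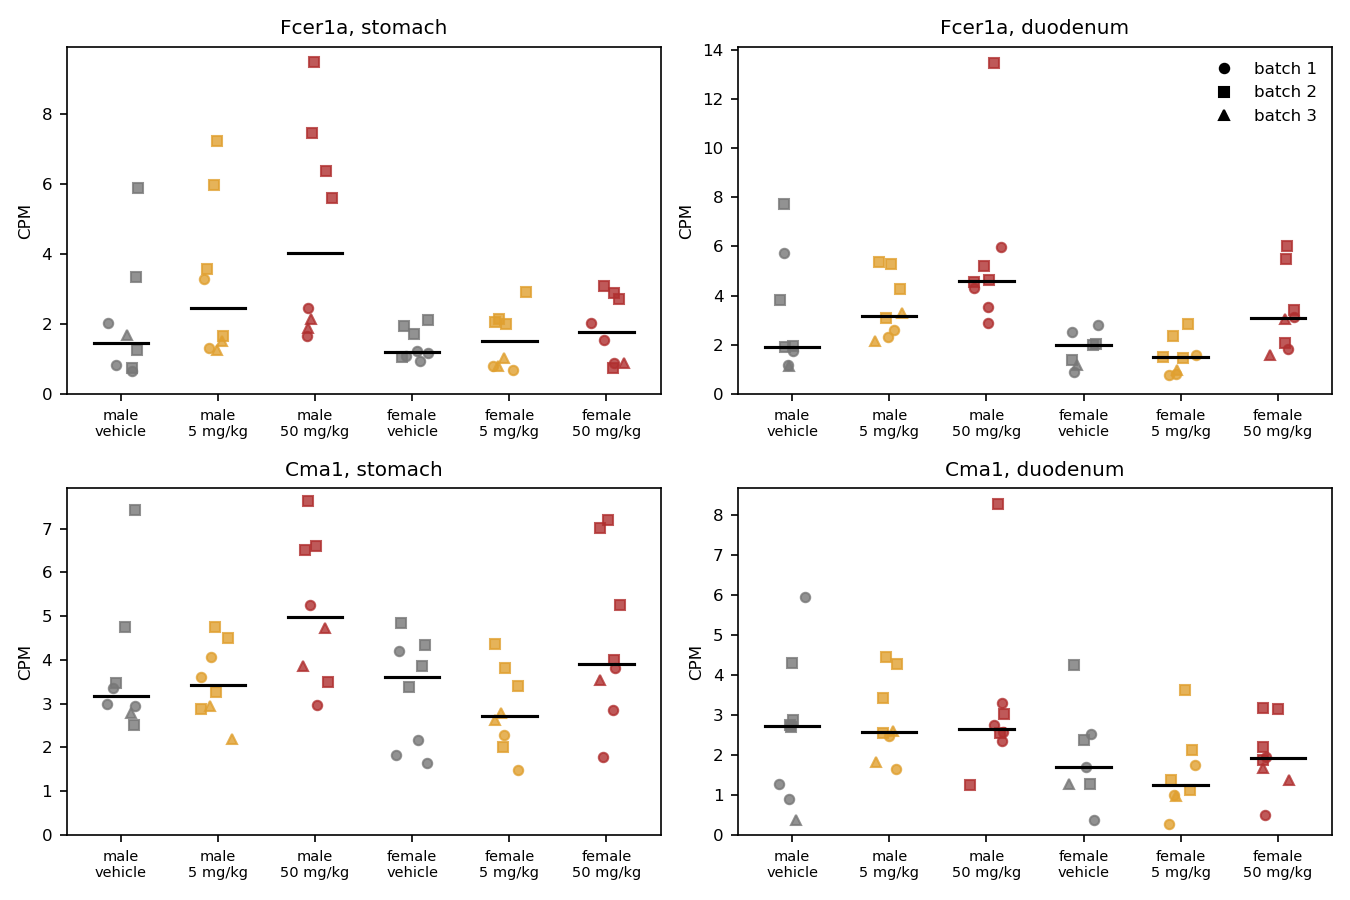
CPM of Fcer1a and Cma1 in each library of stomach and duodenum by sex and dose, with the marker shape giving the batch and the bar the group median. The medians of Fcer1a at 50 mg/kg (4.03 and 1.78 CPM in stomach of males and females, 4.60 and 3.07 in duodenum) lie above those of vehicle, with wide overlap, and the 4 highest values of males at 50 mg/kg in stomach are all from batch 2.

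Within batches the direction held and the size varied. In duodenum the log2 change of Fcer1a was 0.39 in batch 1 and 1.05 in batch 2, in stomach 0.59 and 0.91, and in stomach of males 0.72 and 1.36. Batch 3 was too thin to be fitted alone, and without it the duodenum change was 0.73 with an adjusted p of 0.0534. With the ribosomal protein share in the model the change was 0.28 in duodenum, 0.25 in stomach and 0.30 in stomach of males (adjusted p = 0.988, 0.751 and 0.938). With 3 surrogate variables it was 0.38, 0.24 and 0.29. The number of all genes called fell in the same fits, from 2481 to 0 in duodenum and from 680 to 1 (share) or 0 (surrogate variables) in stomach.

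**Figure D3:**
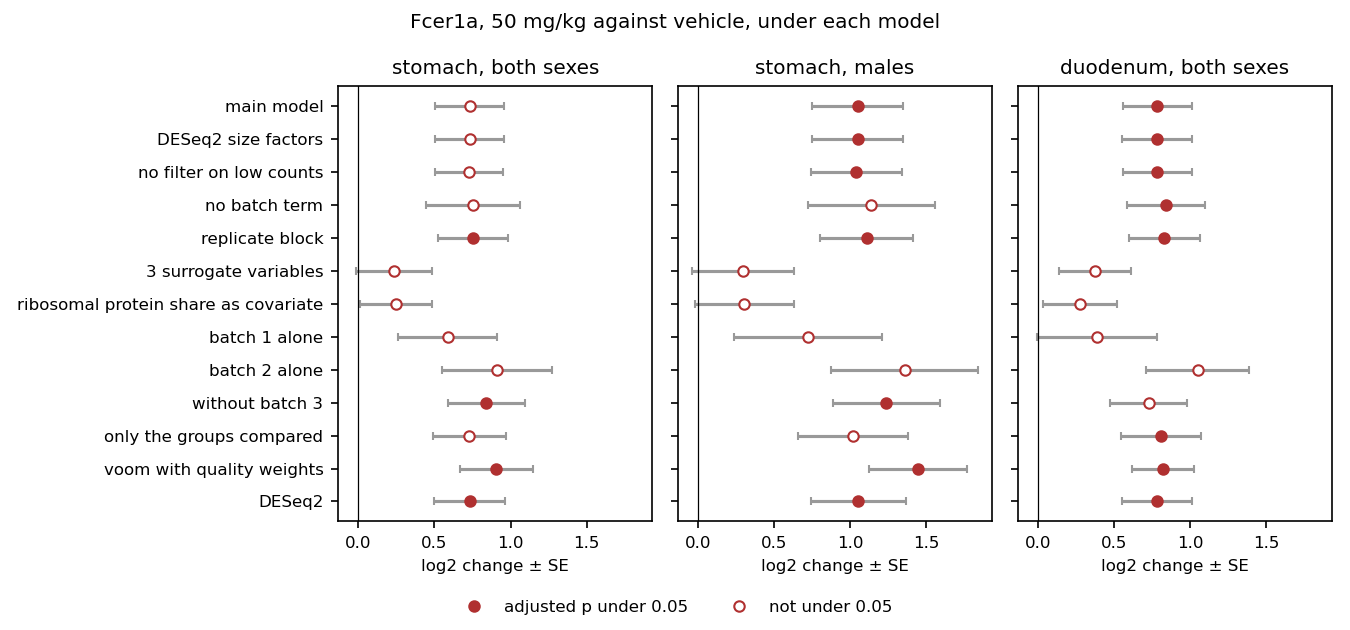
Log2 change of Fcer1a (points, with bars of 1 SE) at 50 mg/kg against vehicle under the main model and 12 alternatives, for stomach, stomach of males and duodenum. All points are above 0, filled points pass an adjusted p of 0.05, and the values with the ribosomal protein share or surrogate variables lie between 0.24 and 0.38.

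Markers of other cells that can carry Fcer1a, or that share its tissue, were read beside it. The 6 eosinophil genes summed to a median of 3.53 CPM in vehicle stomach (1.77 to 8.22) and 6.22 at 50 mg/kg (1.78 to 14.4), and to 2.83 (1.29 to 6.27) and 4.44 (0.997 to 13.5) in duodenum. Of these, Ccr3 was called in stomach of males (1.10 ± 0.32, adjusted p = 0.0310), whereas Epx, which makes eosinophil peroxidase, was listed at 0 in every stomach library. The basophil list of 3 measured genes had summed medians of 3.25 and 3.40 CPM in stomach and 7.46 and 6.72 in duodenum, with Prss34 at 0 in every stomach and duodenum library. The 10 macrophage genes had summed medians of 261 CPM (160 to 342) and 320 (230 to 476) in stomach, and 1109 (633 to 2383) and 1505 (815 to 3182) in duodenum. Lyz2 of that list was called in stomach (0.51 ± 0.11, adjusted p = 0.0216) and in duodenum (0.75 ± 0.18, adjusted p = 0.0105). The ranges of these sums overlapped between doses, and the part of these cells in the change of Fcer1a was not tested.

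The beta chain Ms4a2 moved less than the alpha chain. In duodenum its medians were 4.26, 5.69 and 6.30 CPM at vehicle, 5 and 50 mg/kg, with highest libraries of 12.2, 8.75 and 12.6. The log2 change at 50 mg/kg was 0.28 ± 0.16 (adjusted p = 0.227). In stomach the medians were 2.58, 2.81 and 3.31 CPM and the change 0.24 ± 0.15 (adjusted p = 0.352). In stomach the change was -0.23 within batch 1, opposite to that over all batches. The groups overlapped in both tissues, and no dose contrast called Ms4a2 with all libraries.

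Of the granule proteases, Cma1 was the 1 with a call, in stomach between the doses. Its medians were 3.37 CPM with vehicle (1.65 to 7.44), 3.10 at 5 mg/kg (1.49 to 4.76) and 4.37 at 50 mg/kg (1.78 to 7.62). Libraries at 50 mg/kg were 1.49-fold higher than those at 5 mg/kg (log2 0.57 ± 0.15, adjusted p = 0.0473), the 1 call among 7 mast cell genes in that contrast, in which 0.707% of all genes were called, 0.614% higher and 0.0925% lower. Against vehicle the change was 0.42 ± 0.15 and was not called (adjusted p = 0.0817), except without vehicle male replicate 6, vehicle female replicate 3 or male replicate 5 at 50 mg/kg (adjusted p from 0.0307 to 0.0452). The call between doses was lost in 8 of 12 alternatives, with adjusted p of 0.0624 with no filter on low counts and of 0.0783 with voom. In duodenum, Cma1 had medians of 2.39, 1.97 and 2.45 CPM and a change of 0.15 ± 0.27 at 50 mg/kg (adjusted p = 0.742).

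Cpa3 had medians of 4.67, 5.03 and 5.76 CPM in stomach at vehicle, 5 and 50 mg/kg, and of 6.29, 8.94 and 9.91 CPM in duodenum. At 50 mg/kg the change was 0.30 ± 0.16 in stomach (adjusted p = 0.236) and 0.29 ± 0.17 in duodenum (adjusted p = 0.234), neither called. In duodenum, 14 of 16 libraries at 50 mg/kg were above the vehicle median, although the highest library of all, 22.9 CPM, was a vehicle male. Leaving out vehicle male replicate 3 of the duodenum called both Cpa3 (adjusted p = 0.0231) and Ms4a2 (adjusted p = 0.0370).

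Tpsb2 passed the filter in stomach alone. Its medians were 1.10 CPM with vehicle (0.308 to 4.08), 0.805 at 5 mg/kg (0.270 to 1.80) and 1.51 at 50 mg/kg (0.476 to 3.55). Tpsb2 differed between 50 and 5 mg/kg by 0.88 ± 0.24, which was not called (adjusted p = 0.0647), and was called by DESeq2 (adjusted p = 0.0394). In males at 5 mg/kg the median was 0.707 CPM against 1.56 with vehicle, a change of -1.10 ± 0.35 (adjusted p = 0.620). In females at 50 mg/kg it changed by 0.74 ± 0.35 (adjusted p = 0.848), more than Fcer1a there (0.41 ± 0.34), and neither was called. Counts were low, with a median of 9 per stomach library. Tpsab1 did not pass the filter in any tissue, and its stomach medians were 0.510, 0.479 and 0.733 CPM.

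Kit and Gata2, which other gut cells also make, gave smaller changes that were not called. In stomach the median of Kit was 45.5 CPM with vehicle (32.1 to 52.8), 41.7 at 5 mg/kg (32.3 to 63.3) and 39.6 at 50 mg/kg (32.6 to 51.9). The change at 50 mg/kg was -0.16 ± 0.07 (adjusted p = 0.141) and 3 of 16 libraries were above the vehicle median. In stomach of males it was -0.23 ± 0.09 (adjusted p = 0.116). In duodenum Kit had medians of 16.4, 16.4 and 15.9 CPM and a change of -0.08 ± 0.11. Gata2 had medians of 4.27, 4.54 and 4.63 CPM in stomach and 3.15, 3.62 and 3.93 in duodenum, with changes of 0.11 ± 0.11 and -0.05 ± 0.19 (adjusted p = 0.565 and 0.886).

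**Figure D4:**
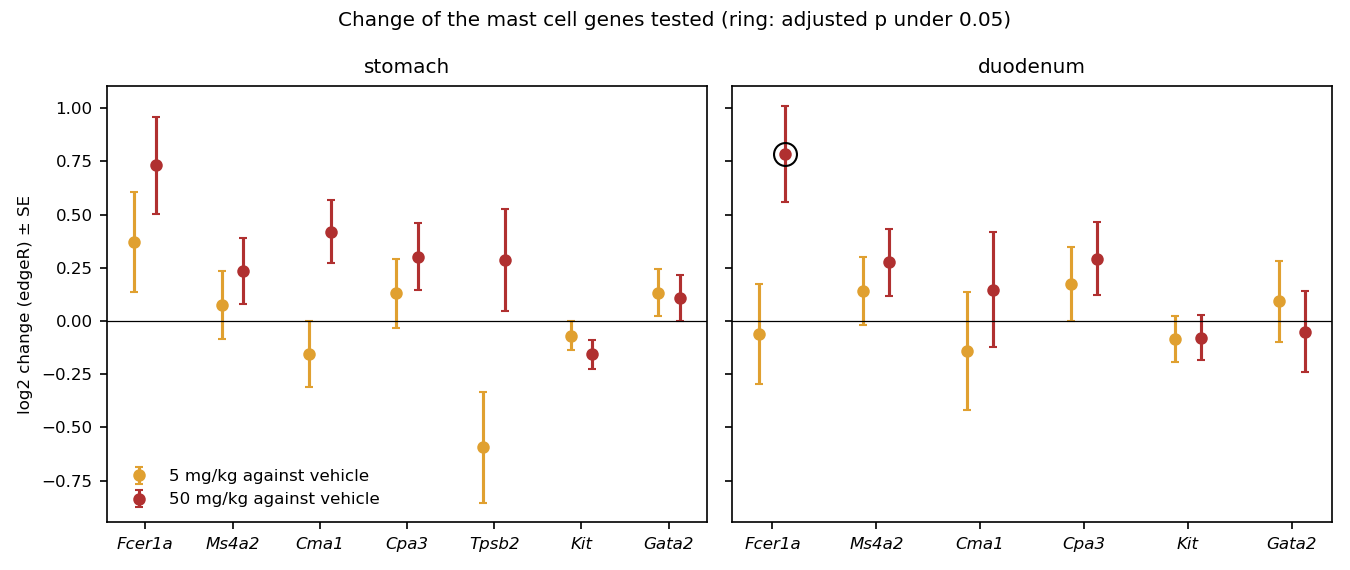
Log2 change with SE of each mast cell gene that passed the filter, at 5 and 50 mg/kg against vehicle, in stomach and duodenum; a ring marks an adjusted p under 0.05. At 50 mg/kg the median over the genes was 0.29 in stomach and 0.21 in duodenum, and the 1 ring is Fcer1a in duodenum (0.78 ± 0.23).

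At 50 mg/kg, 6 of the 7 genes tested in stomach had positive values, with a median of 0.29 against -0.01 over all genes. In duodenum 4 of 6 were positive, with a median of 0.21 against -0.02. Of all genes, 48.3% were positive in stomach and 46.7% in duodenum. At 5 mg/kg no mast cell gene was called by edgeR, DESeq2 or voom, and 0% of all genes were called in either gut tissue. Of the tested genes, 1 of 7 in stomach (Tpsb2, -0.59 ± 0.26, adjusted p = 0.801) and 0 of 6 in duodenum had an unadjusted p under 0.05, and the medians were 0.07 and 0.02. In duodenum Fcer1a at 50 mg/kg exceeded the 5 mg/kg libraries by 0.85 ± 0.22, which was not called (adjusted p = 0.332), like every other gene in that contrast.

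In liver only Kit and Gata2 could be tested. Kit had medians of 3.66, 2.98 and 3.04 CPM at vehicle, 5 and 50 mg/kg and a change of -0.13 ± 0.17 at 50 mg/kg. Gata2 had medians of 1.08, 1.10 and 1.15 CPM and a change of 0.09 ± 0.18. Neither was called by edgeR, DESeq2 or voom (adjusted p = 1 by edgeR), 0 of the 2 had an unadjusted p under 0.05, and 0% of all genes were called. The receptor chains and proteases gave between 0 and 13 counts per liver library and did not pass the filter.

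Vehicle females had lower values than vehicle males for all 7 mast cell genes tested in stomach and all 6 in duodenum, with medians of -0.31 and -0.45 against -0.01 and -0.02 over all genes, but none was called by edgeR, DESeq2 or voom. Of all genes, 47.7% in stomach and 45.8% in duodenum had higher values in females. Several of the mast cell genes varied together across libraries, so their shared direction is not separate evidence from each gene. In stomach 0.172% of all genes were called, 0.0793% higher and 0.0925% lower in females, and in duodenum 0.079%. The unadjusted p was under 0.05 for 4 of 7 genes in stomach and 2 of 6 in duodenum, as for 1106 of 15140 and 805 of 15189 genes in all. Cpa3 had medians of 3.90 CPM in females and 5.61 in males in stomach, and 6.11 and 8.44 in duodenum, with differences of -0.58 ± 0.23 and -0.59 ± 0.25 (adjusted p = 0.462 and 0.804). Tpsb2 in stomach had medians of 1.01 and 1.56 CPM (-0.88 ± 0.34, adjusted p = 0.464).

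Other genes of the mast cell were read from lists by role. Their calls at 50 mg/kg are to be read beside the 16.3% of all genes called in duodenum, 4.49% in stomach and 7.06% in stomach of males: most lists held 0 or 1 called gene, and no list was tested as a whole. Of the 13 genes of IgE receptor signalling in duodenum, 4 were positive and 9 negative, 0 rose and 2 fell, namely the kinase Syk, which relays the receptor's signal (-0.45 ± 0.10, adjusted p = 0.0104), and the adaptor Gab2 (-0.22 ± 0.06, adjusted p = 0.0170), with a list median of -0.12. Both are also made by many other cells. In stomach 0 of the 13 were called, with a median of 0.07 and 3 at an unadjusted p under 0.05. Among 9 genes of granule contents and mediator synthesis, Srgn, which makes the granule proteoglycan serglycin and is found in many blood cells, rose in duodenum (0.45 ± 0.16, adjusted p = 0.0421) and in stomach of males (0.68 ± 0.21, adjusted p = 0.0366). In stomach over both sexes 0 of the 9 were called, and Alox5ap, needed for leukotriene synthesis, came closest (0.37 ± 0.12, adjusted p = 0.0586).

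Of 16 other granule proteases, 5 passed the filter in stomach and 4 in duodenum, and none was called at 50 mg/kg. In stomach all 5 had positive values (median 0.48), among them Mcpt10 (0.59 ± 0.23, adjusted p = 0.107), Mcpt1 (0.48 ± 0.22, adjusted p = 0.169) and Mcpt1l1 (0.46 ± 0.20, adjusted p = 0.150). Mcpt1, which RefSeq lists with the synonyms rMCP-I and rMCP-II, had vehicle medians of 24.7 CPM in stomach, 135 in duodenum and 1.96 in liver, and was lower in stomach than in duodenum by -2.34 ± 0.19 (adjusted p = 3.47e-22). Several counts of this family were fractional, so reads were shared among near-identical genes and each level is uncertain. RefSeq also gives rMCP-I as a synonym of Mcpt1l1. Whether the Mcpt1 row also counts the protease that textbooks call Mcpt2 was not settled.

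Of 11 growth and recruitment signals, 5 were tested in each gut tissue, and Il18 rose in duodenum (0.40 ± 0.14, adjusted p = 0.0455) with none called in stomach. Kitlg, the ligand of Kit, had vehicle medians of 112 CPM in stomach, 121 in duodenum and 2.90 in liver. Of 13 other mast cell surface receptors, 11 were tested in duodenum, where the prostaglandin receptor Ptger4 fell (-0.31 ± 0.09, adjusted p = 0.0253), and 9 in stomach, where none was called. Of 7 mast cell transcription factors, 6 were tested in each: Runx1 fell in duodenum (-0.42 ± 0.14, adjusted p = 0.0355) and Zfpm1, a partner of GATA factors, in stomach (-0.28 ± 0.08, adjusted p = 0.0437). At 5 mg/kg no gene of these lists was called in the gut.

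Among markers of other cells, single genes of longer lists were called. In duodenum at 50 mg/kg, where 16.3% of all genes were called, 1 of 7 T and NK cell genes, 1 of 6 B and plasma cell genes and 1 of 4 endocrine genes passed: Cd3g rose (0.80 ± 0.29, adjusted p = 0.0495), Mzb1 rose (0.51 ± 0.17, adjusted p = 0.0358), and Chgb fell (-0.29 ± 0.08, adjusted p = 0.0178). In stomach of males, where 7.06% of all genes were called, 4 of 10 macrophage genes rose and all 10 had positive values (median 0.27), with Aif1 (0.54 ± 0.16), C1qa (0.44 ± 0.14), C1qc (0.50 ± 0.14) and Lyz2 (0.70 ± 0.16) called. Of all genes, 47.5% had positive values in that contrast. There 1 of 2 enterocyte genes rose, Fabp2 (1.36 ± 0.37), and 1 of 4 hepatocyte genes fell, Serpina1 (-0.64 ± 0.19). Between 50 and 5 mg/kg in stomach, 1 of 4 squamous epithelium genes was higher, Krtdap (0.91 ± 0.23, adjusted p = 0.0454). Of 6 fibroblast genes, 2 were lower in stomach of vehicle females than of vehicle males, Col1a1 (-0.95 ± 0.20) and Col3a1 (-0.70 ± 0.15), which make fibrillar collagens.

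Across libraries, Cpa3 was compared with each other mast cell gene, and Kit and Gata2 each with a marker of another cell type. Over all libraries of a tissue, 17 relations of log2 CPM were computed and 14 had an adjusted permutation p under 0.05. After removal of sex, dose and batch terms 12 had, and without TMM scaling 15. No such share was computed for other pairs of genes, and the libraries of a tissue share their depth and composition. The count therefore cannot show whether such relations are particular to mast cell genes. Cpa3 and Ms4a2 had Pearson's r of 0.75 in stomach and 0.85 in duodenum (Spearman's rho 0.72 and 0.84), and without the 2 libraries farthest from the median of Cpa3, r was 0.76 and 0.82. Cpa3 and Fcer1a had r of 0.73 and 0.69 (rho 0.67 and 0.73; 0.73 and 0.66 without those 2). All 4, by r and by rho, had a permutation p of 1e-05, the smallest that 100000 resamples can give, and an adjusted p of 2.43e-05. These permutations did not keep sex, dose or batch fixed. After removal of those terms, r of Cpa3 and Ms4a2 was 0.58 in stomach and 0.78 in duodenum. For Cpa3 and Fcer1a it was 0.56 and 0.49, and 0.48 and 0.34 without the 2 farthest libraries. Within batches 1 and 2, r of Cpa3 and Ms4a2 was 0.41 and 0.83 in stomach and 0.89 and 0.67 in duodenum, and r of Cpa3 and Fcer1a was 0.69 and 0.70 in stomach and 0.74 and 0.56 in duodenum.

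Cpa3 and Cma1 had r of 0.51 in stomach (rho 0.50 with p = 0.00035, permutation p of r = 0.00015, adjusted p = 0.000283) and 0.65 in duodenum (rho 0.66, permutation p of both = 1e-05, adjusted p = 2.43e-05). After removal of sex, dose and batch terms the stomach relation was not called (r of 0.23, permutation adjusted p = 0.135). That of duodenum was called by r (0.50, permutation adjusted p = 0.00119) but not by rho (0.31, permutation adjusted p = 0.0522). Its r after that removal was 0.28 without the 2 farthest libraries. With those terms kept, r without the 2 farthest libraries was 0.49 in stomach and 0.59 in duodenum. Within batches 1 and 2 it was 0.46 and 0.36 in stomach and 0.66 and 0.36 in duodenum. Cpa3 with Gata2 gave r of 0.47 in stomach (rho 0.55 with p = 9e-05, permutation p of r = 0.00068, adjusted p = 0.00116) and 0.41 in duodenum (rho 0.31 with p = 0.0354, permutation p of r = 0.00441, adjusted p = 0.00682). Within batches 1 and 2 that relation was 0.11 and 0.66 in stomach and 0.84 and 0.10 in duodenum, so it did not hold within every batch, and without the 2 farthest libraries it was 0.64 and 0.39. After removal of sex, dose and batch terms, r of Cpa3 and Gata2 was 0.33 in stomach (permutation adjusted p = 0.029) and 0.48 in duodenum (permutation adjusted p = 0.00185). The duodenum rho was then 0.28 and not called (permutation adjusted p = 0.0774), and r there was 0.27 without the 2 farthest libraries. Cpa3 and Tpsb2 in stomach had r of 0.27 (rho 0.29 with p = 0.0455, permutation p of r = 0.0680, adjusted p = 0.0770), 0.35 without the 2 farthest and 0.08 and 0.15 in batches 1 and 2.

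The relation of Kit and Cpa3 was not called, with r of -0.13 in stomach (rho -0.06 with p = 0.672, permutation p of r = 0.368, adjusted p = 0.368) and 0.20 in duodenum (rho 0.10 with p = 0.484, permutation p of r = 0.175, adjusted p = 0.186). Without TMM scaling the duodenum relation was called by r (0.31, permutation adjusted p = 0.0359). Without the 2 farthest libraries these were -0.12 and 0.16, and within batches 1 and 2 they were -0.02 and -0.05 in stomach and 0.47 and -0.08 in duodenum. Kit varied with Ano1, the chloride channel that marks the interstitial cells of Cajal, with r of 0.40 in stomach (rho 0.37 with p = 0.00945, permutation p of r = 0.00482, adjusted p = 0.00683) and 0.60 in duodenum (rho 0.60, permutation p of both = 1e-05, adjusted p = 2.43e-05). In stomach the relation of Kit and Ano1 was not called after removal of sex, dose and batch terms (r of 0.26, permutation adjusted p = 0.0867). Without the 2 libraries farthest from the median of Ano1, r of Kit and Ano1 was 0.34 and 0.57. Within batches 1 and 2 it was 0.40 and 0.37 in stomach and 0.62 and 0.60 in duodenum. In liver r of Kit and Ano1 was 0.63 (rho 0.53 with p = 0.0002, permutation p of r = 3e-05, adjusted p = 6.37e-05), with 0.46 after removal of the 2 farthest, but -0.29 in batch 1 and 0.71 in batch 2. The libraries removed were not chosen by Kit. Batch 2 of liver held female replicate 6 at 5 mg/kg, where Kit was far below its group (0.789 CPM), and its weight in r was not tested. The Cajal marker list summed to a vehicle median of only 4.01 CPM in liver, and which cells carry Ano1 there was not tested.

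Gata2 varied with Cdh5, the cadherin of endothelium, with r of 0.36 in stomach (rho 0.37 with p = 0.01, permutation p of r = 0.0119, adjusted p = 0.0145), 0.67 in duodenum (rho 0.63, permutation p of both = 1e-05, adjusted p = 2.43e-05) and 0.38 in liver (rho 0.27 with p = 0.0727, adjusted 0.0824, permutation p of r = 0.00958, adjusted p = 0.0125). Without the 2 libraries farthest from the median of Cdh5, r of Gata2 and Cdh5 was 0.24, 0.61 and 0.40. Within batches 1 and 2 it was -0.05 and 0.51 in stomach, 0.69 and 0.70 in duodenum and 0.27 and 0.44 in liver.

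**Figure D5:**
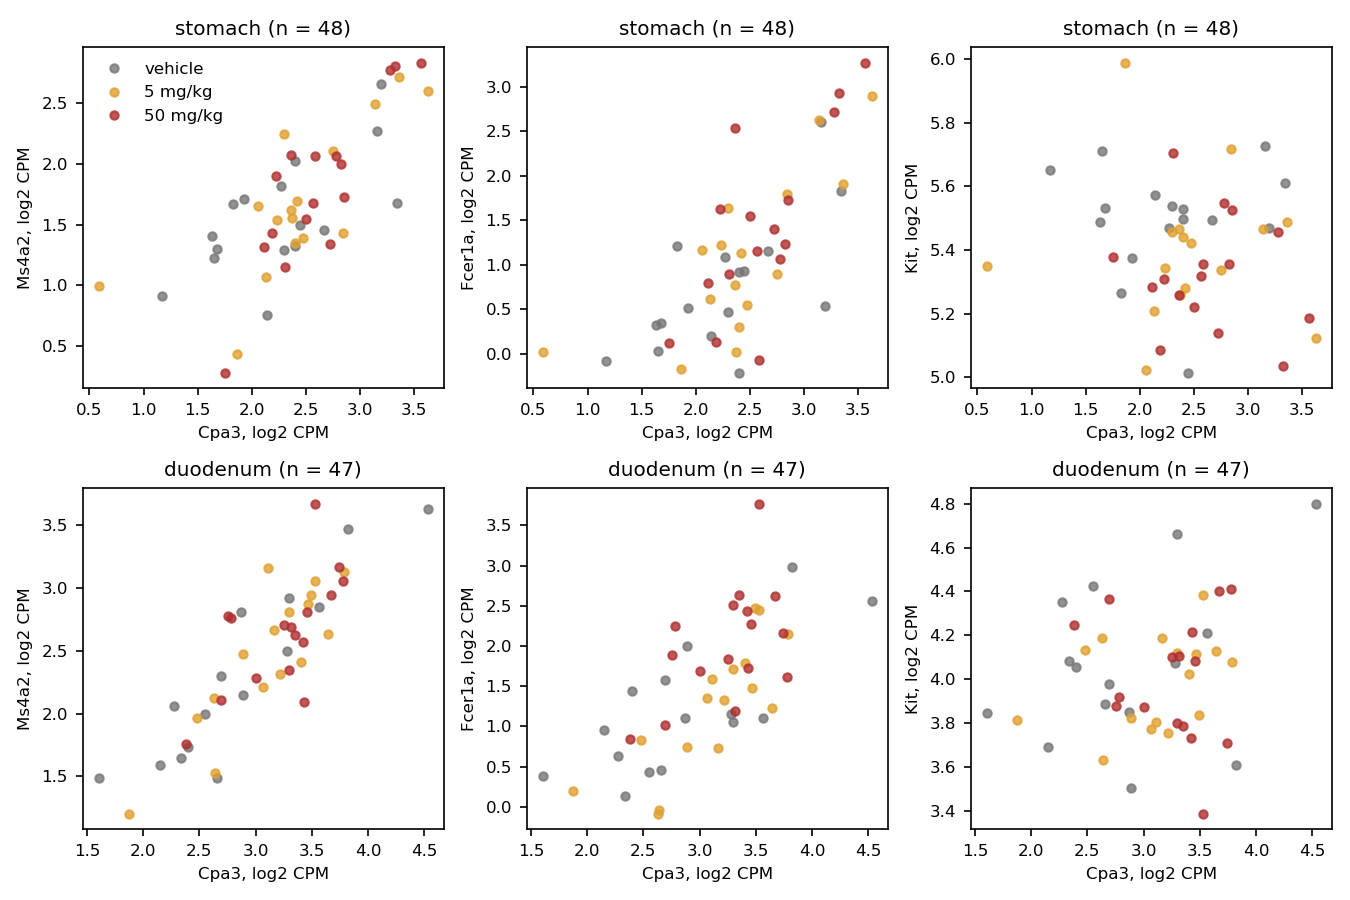
Log2 CPM of Ms4a2, Fcer1a and Kit against Cpa3 in each library of stomach (48) and duodenum (47), coloured by dose. Ms4a2 and Fcer1a rise with Cpa3 (r of 0.69 to 0.85), while Kit forms a cloud with r of -0.13 and 0.20.

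The genes whose libraries ran most like those of Fcer1a, Ms4a2, Cma1, Cpa3 and the tryptases that passed the filter were found by Pearson's r with the mean of their standardised log2 CPM, after removal of sex, dose and batch terms. This is a description without a test, and the libraries share their depth and tissue composition. In stomach (48 libraries, 5 genes in the mean) the 5 highest were Mcpt10 (r of 0.65), Tnfaip8l2 (0.61), Srgn (0.58), Snap47 (0.58) and Fcgr2al1 (0.58). In duodenum (47 libraries, 4 genes) they were Mcpt1 (0.88), Srgn (0.66), Pla2g7 (0.65), Ms4a4a (0.64) and Mcpt10 (0.63).

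The deposited transcript values added up to those of the genes. Of 3 annotated transcripts of Fcer1a, 1 held 86.4% of its counts in stomach and 84.3% in duodenum. The leading transcript of Cpa3, of 2, held 88.5% and 93.5%, and that of Kit, also of 2, 76.8% and 78.0%. The remaining 5 genes had 1 transcript each.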

How the data were processed

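Polyadenylated RNA of 141 rat tissue libraries was sequenced. The authors deposited expected counts per gene and per transcript, estimated counts that need not be whole, in 1 table per tissue. The submitters' processing notes name Salmon 1.10.3 and STAR 2.7.11b, the trimmers Trim Galore 0.6.10 and cutadapt 4.9, UMI-tools 1.1.5, and for quality reports MultiQC 1.28 and FastQC 0.12.1. They name the build mRatBN7.2. How each tool was set, the strand and the annotation release: not given in the sources used here. Where near-identical genes share reads, such estimates divide them.

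Expected counts were rounded, which changed no library total by more than 0.00064%. Genes were filtered per tissue with filterByExpr (minimum count 10, minimum total 15), scaled by TMM and tested with edgeR 4.0.16 (quasi-likelihood, terms for each sex and dose group and for batch), with Benjamini-Hochberg adjustment over all genes and a threshold of 0.05. A change was called past that threshold. SE is the log2 change divided by the square root of F. Tissues were compared among vehicle libraries in 1 fit of all 141, scaled together and treated as independent. Plotted log2 CPM used a prior count of 2. Relations were tested with 100000 permutations, two-sided. The edgeR step was tested on simulated data. Alternatives used DESeq2 1.42.0, limma 3.58.1 and sva 3.50.0 in R 4.3.3. Same-numbered replicates were not treated as pairs.

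The genes and lists were chosen with earlier results of these data known. The text names every gene of the mast cell list, the genes of the other lists called in a dose or sex contrast it describes, otherwise up to 3 of a list with the smallest p, and the 5 genes most like the mast cell genes in each gut tissue. For the contrasts between tissues, where most genes passed, few list genes are named. Total counts per library bound the precision: 1 count in a library of 4947825 is the coarsest step.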

Additional observations from a re-analysis of the deposited data

Results flagged for a closer look

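Each mast cell gene was checked for a library far from the rest of its sex and dose group in each tissue, by the gap to its nearest neighbour over the range of the group. Of 90 groups, 7 held such a library, and chance gives about 1 in 20. Fcer1a in duodenum of males at 50 mg/kg was highest in replicate 5, at 13.5 CPM against 2.88 to 5.99 in the others. Ms4a2 in stomach of females at 50 mg/kg was lowest in replicate 8, at 1.02 CPM against 2.30 to 3.98. Cpa3 in stomach of females at 5 mg/kg was lowest in replicate 6, at 1.30 CPM against 3.45 to 5.15.

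Kit and Gata2 gave the other 4. Kit in stomach of females at 5 mg/kg was highest in replicate 5, at 63.3 CPM against 32.3 to 43.7, and Kit in liver of females at 5 mg/kg was lowest in replicate 6, at 0.789 CPM against 2.90 to 3.81. Gata2 in duodenum of vehicle females was highest in replicate 7, at 6.87 CPM against 2.61 to 3.82, and Gata2 in stomach of vehicle males was lowest in replicate 5, at 2.62 CPM against 4.21 to 6.01.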

How the results depend on the processing

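Of 1941 log2 changes of the mast cell genes under alternatives, 1893 kept direction and side of the threshold, 22 lost a call, 8 gained one and 18 changed sign; a sign change was counted only where the change as reported was called or larger than its SE, and the value it changed to may be within its own SE. Leaving out 1 library, 798 of 820 kept both, 7 lost a call and 15 gained one. The number of mast cell genes called in duodenum at 50 mg/kg was 0 in batch 1, in batch 2, without batch 3 and when 3 surrogate variables or the share of ribosomal protein genes entered the model. In stomach at 50 mg/kg it was 1 with the replicate block, without batch 3, with voom and with DESeq2. In stomach of males it was 0 in either batch alone, with only the groups compared, with no batch term, and with surrogate variables or the share. Between 50 and 5 mg/kg in stomach it was 0 with no filter, with no batch term, under surrogate variables, in either batch alone, without batch 3 and with voom, and 2 with only the groups compared and with DESeq2. Between the sexes in liver it was 1 with no filter. The cause was not tested.

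Without 1 library, the genes called ran from 0 to 2 in stomach, 0 to 1 in stomach of males, 1 to 3 in duodenum and 0 to 1 in duodenum of males. The number of all genes called ran from 274 to 1641 in stomach of males and from 0 to 2150 in duodenum of males. Of 17 relations, 14 were past the threshold as reported and with a prior count of 0.5, 12 after removal of sex, dose and batch terms and 15 without TMM scaling. Correlations between libraries with the same replicate number were read within a tissue, between doses. In 0 of 18 pairs of groups were all of them above 0.1, and their median was 0.04. Whether libraries of different tissues came from the same animal was not tested. With the replicate block, Fcer1a in stomach was called (0.75, adjusted p = 0.0406).

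Signs changed in batch 1 for Ms4a2 in stomach at 50 mg/kg (-0.23; males -0.40; sex by dose -0.32), Cpa3 in duodenum at 5 mg/kg (-0.0187; males -0.12), Kit in stomach at 5 mg/kg (0.0752), Gata2 between the sexes in stomach (0.0636), and Kit and Tpsb2 in sex by high dose in stomach (0.0431 and 0.0138). In batch 2, Fcer1a in duodenum of females at 5 mg/kg was 0.16. Without batch 3, Cpa3 in duodenum of males at 5 mg/kg was -0.00465. With surrogate variables, Kit was 0.0452 in duodenum of males at 50 mg/kg, 0.00611 in stomach at 50 mg/kg and 0.0599 between doses, and Gata2 was -0.11 in liver of males at 5 mg/kg and -0.0167 in sex by low dose. With the share, Kit was 0.0231 in duodenum of males and 0.000807 in sex by high dose in stomach. Depth limits the tryptases, with a median of 9 counts of Tpsb2 per stomach library.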

Other observations

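In liver, where the mast cell receptor chains and proteases did not pass the filter, vehicle females and males differed in other genes of the lists, in a contrast that called 22.8% of all genes. The granule protease Mcpt1 was lower in females (0.431 to 2.70 CPM, median 0.850) than in males (1.95 to 3.63, median 2.68), by -1.49 ± 0.35 (adjusted p = 0.00125 by edgeR), and the groups overlapped. Hdc, which makes histamine, was lower by -1.38 ± 0.37 (adjusted p = 0.00448) and Ltc4s, which makes leukotriene C4, by -2.62 ± 0.96 (adjusted p = 0.0432). Il33, a signal to mast cells, was higher in females by 0.86 ± 0.13 (adjusted p = 2.44e-06). Of 10 macrophage genes, 5 were higher in females, namely Adgre1, Cd163, Cd68, Csf1r and Mrc1. Cpa1, an enzyme of the pancreas, was higher by 10.68 ± 0.73, and the part of other tissue in these differences was not tested.

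The alpha chain was also read against the beta chain, a measure chosen after their values were seen. The median log2 ratio of Fcer1a to Ms4a2 was -0.78 in vehicle stomach and -0.21 at 50 mg/kg, and -1.10 and -0.57 in duodenum. Its SD across libraries was 0.69 and 0.67 in stomach and 0.55 and 0.51 in duodenum. The ratio was not fitted with the ribosomal protein share, a model in which Fcer1a was not called in stomach or duodenum at 50 mg/kg.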
